A study of Macaca fascicularis with 36 samples.

Results

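ENSMFAG00000044255 and ENSMFAG00000035418 are 2 of the 28623 genes measured by bulk RNA-seq in frontal cortex of the cynomolgus monkey, Macaca fascicularis. They were chosen by their measured levels in these samples, for a rise over the control antibody that was of similar size at both doses of Para09. The rule had no numerical threshold, and its comparisons are therefore given as a description with no test. Both genes are known here only by their Ensembl-type identifiers. The files do not pair identifiers with names, and 0 of them matched a RefSeq table of T2T-MFA8v1.1, which lists 40596 genes, so neither the genes' positions nor their products are given, and markers of cortex could not be checked.

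The study gave 12 monkeys an intrathecal injection and sampled the brain on day 2. Para09, an agonist antibody against human TREM2, went to 4 animals at 50 mg/kg (animals 4501 to 4504) and to 4 others at 200 mg/kg (animals 5501 to 5504). Anti-gD, the isotype control antibody, was given at 200 mg/kg to 4 animals (1501 to 1504), so the control matches the higher dose only. Doses are as labelled, and neither how a dose per kg applies to that route nor the sex and age of the animals is stated in the labels. Each animal has 3 libraries, lettered A, B and C, and the labels do not explain the letters. The sample identifiers fall into 2 runs of SAM numbers. The first run of 16 libraries has letter B of all 12 animals, plus letters A and C of animals 1504 (anti-gD) and 5501 (200 mg/kg). The second run of 20 libraries has letters A and C of the remaining 10 animals.

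TREM2 is a receptor on the surface of microglia, the macrophages that reside in the brain. It binds lipids and lipoproteins and signals through the adaptor TYROBP and the kinase SYK, and it is known for its part in the phagocytic and metabolic state of microglia. An agonist antibody binds the receptor and activates it, while an isotype control antibody shares the antibody class without binding the receptor. In bulk cortex microglia are a minor share of the cells, and for a transcript of any cell type a change in the number of cells and a change in RNA per cell cannot be told apart.

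Library totals ran from 15.1 M to 36.97 M counts, and both genes had counts in all 36 libraries. The lowest count of either gene in a library was 595 and the highest 3719, so counting error alone was at most 4.10% of a library's value. Library 5501B, from 200 mg/kg, stands apart, with a count for 15779 genes where the other libraries had 17974 to 19677. The log2 differences at 200 mg/kg, the overlap of ENSMFAG00000035418 and the SD between libraries are also given without it. The letter B results and the correlations between libraries include it. Levels are given in CPM, counts relative to a fixed library total, scaled by TMM, a method that balances libraries on the bulk of their genes.

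Per kilobase of exon, ENSMFAG00000044255 was the more abundant gene. Its deposited RPKM (a read count divided by exonic width and library total) averaged 22.5 ± 1.33 with anti-gD, 29.2 ± 2.81 at 50 mg/kg and 31.0 ± 5.24 at 200 mg/kg (SD, n = 4 animals). ENSMFAG00000035418 averaged 7.10 ± 1.71, 12.4 ± 2.29 and 12.3 ± 3.08 RPKM in the same groups. Among the 23973 genes with a count in any library, 94.4% had a lower mean RPKM than ENSMFAG00000044255 and 83.0% a lower one than ENSMFAG00000035418. Their exonic widths are 2103 and 3945 bases.

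ENSMFAG00000044255 stood higher in every animal given Para09 than in any animal given anti-gD. With anti-gD its level was 78.8, 80.2, 85.1 and 83.6 CPM in animals 1501 to 1504. At 50 mg/kg animals 4501 to 4504 had 90.7, 106.8, 117.5 and 101.4 CPM. At 200 mg/kg animals 5501 to 5504 had 119.5, 93.9, 131.5 and 99.6 CPM. The controls lay within a narrow band and neither dose overlapped them, while the animals of the 2 doses overlapped each other. The gap between the highest control and the lowest treated animal was small, 85.1 against 90.7 CPM. Group means were 81.9 ± 2.92 CPM with anti-gD, 104.1 ± 11.1 at 50 mg/kg and 111.1 ± 17.5 at 200 mg/kg (SD, n = 4 animals).

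The spread of ENSMFAG00000044255 was 3.57% of the mean with anti-gD, 10.7% at 50 mg/kg and 15.7% at 200 mg/kg, a widening that was not tested. Animal 5503 carried the highest level of the series and animal 4501 the lowest among the treated animals. On the log2 scale the gene stood 0.35 above anti-gD at 50 mg/kg (SE 0.12, a 1.27-fold level) and 0.44 above it at 200 mg/kg (SE 0.12, 1.36-fold).

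ENSMFAG00000035418 stood higher with Para09 by a larger fold, with a wider spread in every group. With anti-gD its level was 49.5, 63.1, 31.7 and 50.4 CPM in animals 1501 to 1504. At 50 mg/kg animals 4501 to 4504 had 99.6, 66.2, 75.6 and 87.6 CPM. At 200 mg/kg animals 5501 to 5504 had 59.95, 94.6, 103.1 and 71.0 CPM. All 4 animals at 50 mg/kg lay above the controls, and 3 of the 4 at 200 mg/kg did. Animal 5501, whose 3 libraries are all in the first run, lay below control animal 1502. Without its library 5501B, a setting added after seeing the data, animal 5501 came to 63.44 CPM against 63.48 CPM in the highest control, a difference far smaller than the counting error. In mean deposited RPKM, which is scaled to another total, animal 5501 came out just above the highest control, at 8.83 against 8.73, so the overlap changes with the scaling, and its size with library 5501B.

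The group means of ENSMFAG00000035418 were 48.7 ± 12.9 CPM with anti-gD, 82.2 ± 14.5 at 50 mg/kg and 82.2 ± 20.1 at 200 mg/kg (SD, n = 4 animals). The log2 difference from anti-gD was 0.76 at 50 mg/kg (SE 0.22, 1.69-fold) and 0.76 at 200 mg/kg (SE 0.22, 1.69-fold). Control animal 1503 had the lowest level of the 12 animals, 31.7 CPM. Without it the log2 differences were 0.60 and 0.59 at the lower and higher dose, and without control animal 1502, the highest control, they were 0.91 and 0.90.

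**Figure D1:**
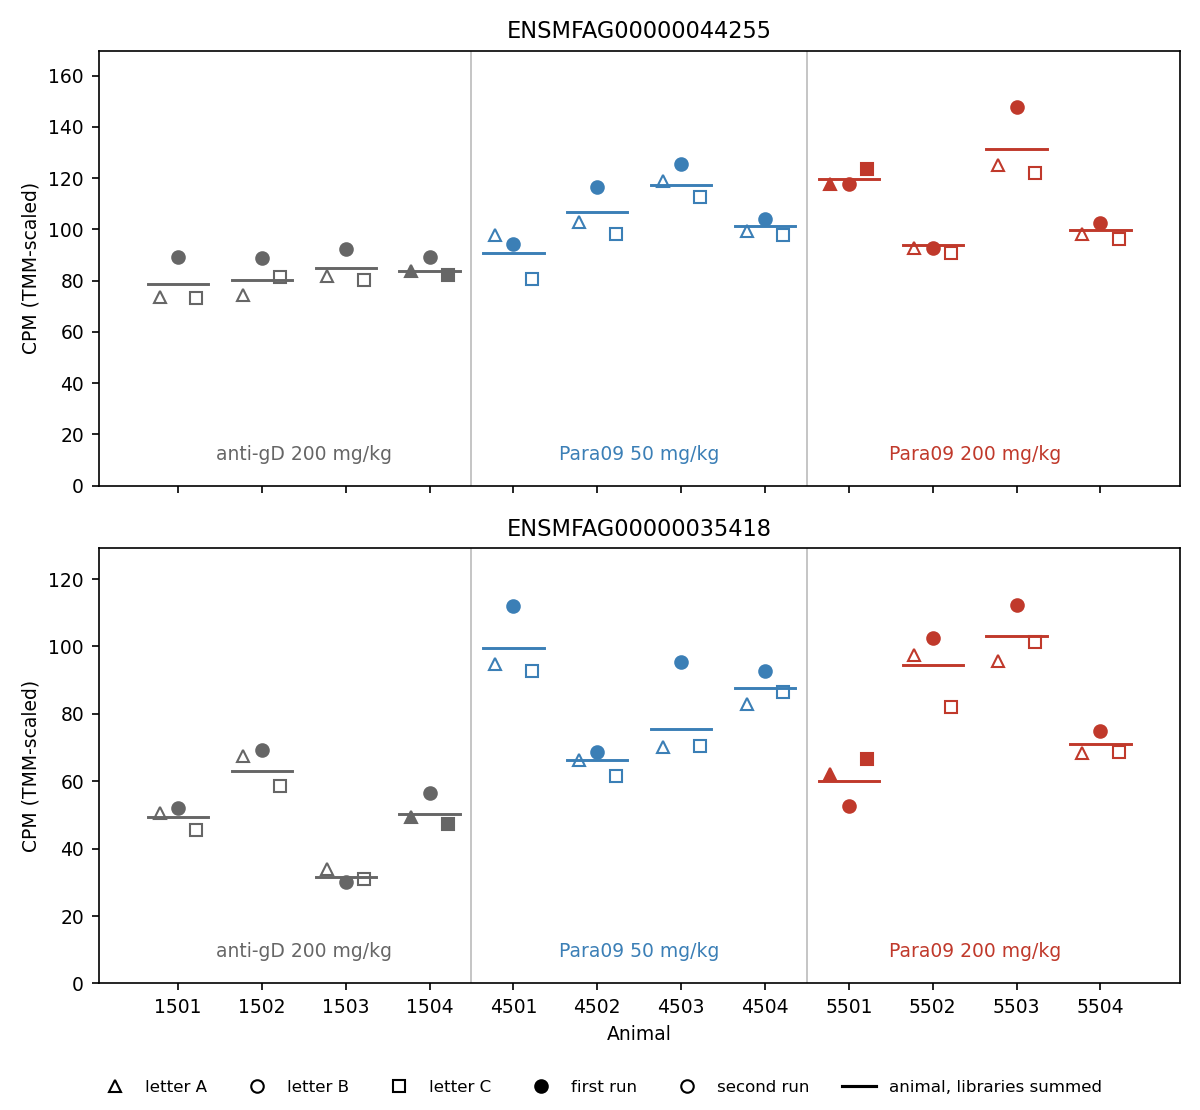
TMM-scaled CPM of each gene (vertical axes, from 0) in the 3 libraries of each of the 12 animals, grouped by treatment; triangles, circles and squares are letters A, B and C, filled symbols belong to the first run of SAM numbers and open ones to the second, and the horizontal bars give the animal's level with its libraries summed. For ENSMFAG00000044255 the 4 control bars lie between 78.8 and 85.1 CPM, below all 8 Para09 bars, and for ENSMFAG00000035418 animal 5501 lies among the controls.

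These counts are read against the other genes. Of 17360 genes tested on animal sums, 2.16% had all 4 animals at 50 mg/kg above all 4 controls, 1.36% had all 4 at 200 mg/kg above them, and 0.271%, or 47 genes, had both. Of these 47 genes, 25 had a log2 difference between the doses no larger in size than 0.0944, the larger of the values for the chosen pair. ENSMFAG00000044255 is 1 of the 47 and ENSMFAG00000035418 is not. Both genes were selected on these comparisons, so the shares give the setting only. In the same fit the median log2 difference over all genes was close to 0 at either dose, at 0.0013 for 50 mg/kg and 0.0016 for 200 mg/kg. The difference of ENSMFAG00000044255 was larger than that of 90.3% of genes at 50 mg/kg and of 94.9% at 200 mg/kg, and for ENSMFAG00000035418 these shares were 98.3% and 98.3%. The doses share the control animals, so a high or low control moves both differences together.

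The step from 50 to 200 mg/kg was small for both genes, the property for which they were picked. ENSMFAG00000044255 differed by a log2 value of 0.09 (95% interval -0.16 to 0.35), which spans a 0.895-fold to a 1.27-fold level. ENSMFAG00000035418 differed by -0.0013 (95% interval -0.47 to 0.47), which spans 0.721-fold to 1.39-fold. Both genes were picked on this step, so the intervals describe the spread in the fit and set no bound on the step. In both genes anti-gD was the lowest of the 3 groups, and the means at the 2 doses lay closer together than the SD of either. Without animal 5503 the step of ENSMFAG00000044255 was -0.0059. For ENSMFAG00000035418 it ran from -0.14 without animal 5503 to 0.12 without animal 5501. Its sign also turned positive without animal 4501 (0.097), 4504 (0.025) or 5504 (0.052), so the sign of the step in either gene changed with single animals.

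Each letter on its own gave the same order of treated above control groups. For ENSMFAG00000044255 the log2 differences at the lower and the higher dose were 0.45 and 0.49 in letter A, 0.31 and 0.37 in letter B, and 0.32 and 0.45 in letter C, with SE between 0.13 and 0.15. For ENSMFAG00000035418 they were 0.68 and 0.71 in letter A, 0.85 and 0.73 in letter B, and 0.79 and 0.81 in letter C, with SE between 0.21 and 0.26. Letter B is the only set in which all 12 animals lie in the same run. The second run alone, with 10 animals, gave 0.40 and 0.44 for ENSMFAG00000044255 and 0.73 and 0.86 for ENSMFAG00000035418. Without library 5501B the differences at 200 mg/kg were 0.44 and 0.77. The 3 libraries of an animal share its tissue, so these subsets are no independent repeats of the comparison.

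**Figure D2:**
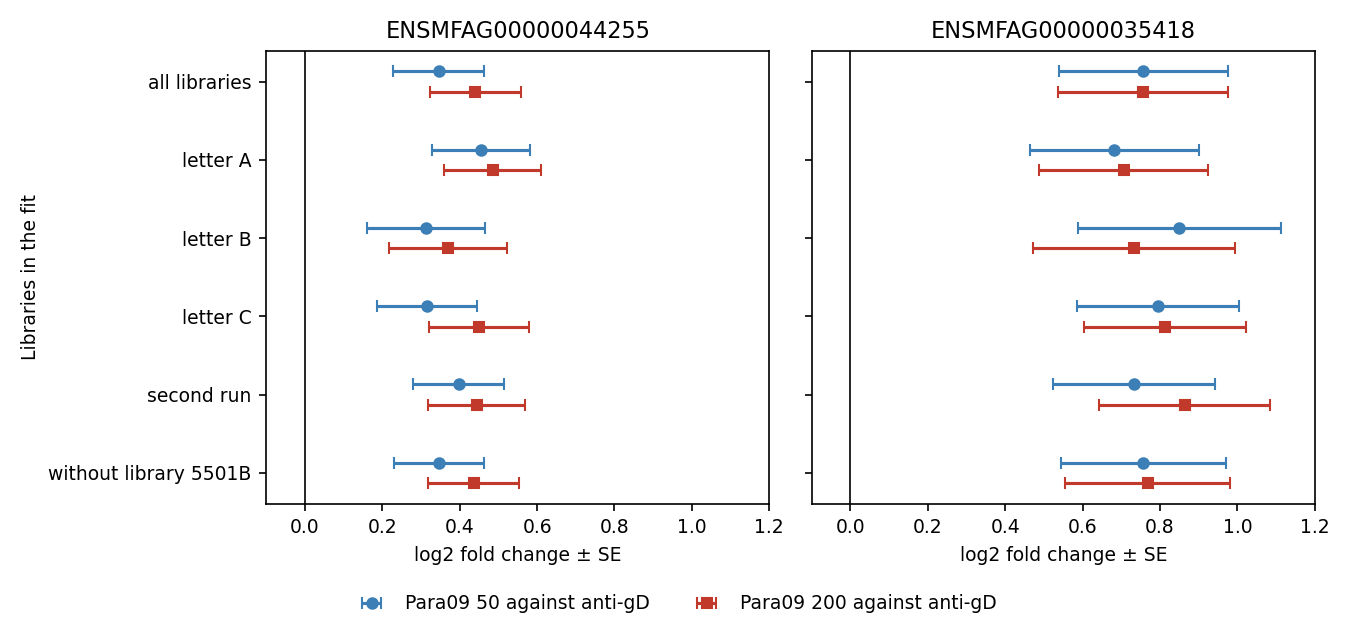
Log2 fold change over anti-gD (horizontal axis, with bars of 1 standard error from the fit) at Para09 50 mg/kg (circles) and 200 mg/kg (squares), for the set of libraries named on the vertical axis. In all 6 sets both doses lie above 0, at 0.31 to 0.49 for ENSMFAG00000044255 and 0.68 to 0.86 for ENSMFAG00000035418, and the bars of the doses overlap.

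At the level of single libraries the groups overlapped in both genes, and more so in ENSMFAG00000035418. The 12 control libraries of ENSMFAG00000044255 ran from 73.2 to 92.2 CPM with a median of 82.1, those at 50 mg/kg from 80.5 to 125.3 (median 101.2) and those at 200 mg/kg from 90.8 to 147.6 (median 110.0). In each dose group 11 of 12 libraries lay above the highest control library, and the exceptions were 4501C at 50 mg/kg and 5502C at 200 mg/kg. For ENSMFAG00000035418 the control libraries ran from 30.2 to 69.1 CPM (median 49.99), those at 50 mg/kg from 61.6 to 111.96 (median 84.7) and those at 200 mg/kg from 52.6 to 112.2 (median 78.4). Here 9 of 12 libraries at 50 mg/kg and 7 of 12 at 200 mg/kg lay above the highest control library. All 3 libraries of animal 5501 were below that control library, at 62.1, 52.6 and 66.6 CPM for letters A, B and C. For these library counts the share over all genes was not determined, so how common they are is not known.

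Within the first run, letter B put the controls of ENSMFAG00000044255 at 89.3, 89.0, 92.2 and 89.1 CPM in animals 1501 to 1504. The letter B libraries at 50 mg/kg had 94.4, 116.6, 125.3 and 103.9 CPM, and those at 200 mg/kg had 117.6, 92.6, 147.6 and 102.4 CPM. No treated library lay below a control, but 5502B at 92.6 CPM was within counting error of 1503B at 92.2 CPM, and when letter B was scaled by itself these libraries overlapped. In letter B, ENSMFAG00000035418 had 52.0, 69.1, 30.2 and 56.5 CPM with anti-gD, 111.96, 68.6, 95.3 and 92.8 CPM at 50 mg/kg and 52.6, 102.4, 112.2 and 75.003 CPM at 200 mg/kg. Animals 4502 and 5501 lay among the controls there. When letter B was scaled by itself, 4502B lay just above the highest control, at 68.7 against 66.7 CPM, and 5501B did not. On that scaling 104 genes had all libraries at 50 mg/kg above the controls and 176 had all at 200 mg/kg. Their share of the genes tested was not determined.

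In the second run, the 6 control libraries of ENSMFAG00000044255 reached at most 81.8 CPM, and 7 of 8 libraries at 50 mg/kg and 6 of 6 at 200 mg/kg lay above that. For ENSMFAG00000035418 the highest control library of the second run had 67.3 CPM, and 6 of 8 libraries at 50 mg/kg and 6 of 6 at 200 mg/kg lay above it. Animal 5501 has no library in the second run. Here too the libraries of an animal are not separate observations, and the share over all genes was not determined.

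The ratio of the genes within an animal does not depend on how libraries are scaled. Per length, ENSMFAG00000035418 stood at 0.319 ± 0.0911 of ENSMFAG00000044255 with anti-gD, at 0.430 ± 0.119 at 50 mg/kg and at 0.401 ± 0.111 at 200 mg/kg (SD, n = 4 animals). The ranges overlapped, from 0.198 to 0.419 with anti-gD, 0.330 to 0.585 at the lower dose and 0.267 to 0.537 at the higher dose. The larger fold of ENSMFAG00000035418 thus did not separate the groups in this ratio.

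The difference between the runs of SAM numbers was not used to choose the genes and could be tested. In the 10 animals with letter B in the first run and letters A and C in the second, both genes were lower in the second run. ENSMFAG00000044255 was lower by a log2 value of -0.11 (SE 0.04) and ENSMFAG00000035418 by -0.12 (SE 0.05), with adjusted p of 0.0299 and 0.0359 in edgeR's quasi-likelihood test with the animal as a block. Both genes were thereby called, as were 57.7% of 16046 genes in that test, so the calls are no particular feature of these genes. On log2 CPM, ENSMFAG00000044255 was lower in the second run in 10 of 10 animals (exact two-sided sign-flip permutation p = 0.00195, the smallest possible with 10 animals) and ENSMFAG00000035418 in 9 of 10 (exact p = 0.00586). The permutation test was run on these genes only, so the share of all genes with such a result is not given.

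The median gene of the run test was itself lower by -0.08, and relative to it the genes differed by -0.030 and -0.041, less than 1 SE. The call for ENSMFAG00000044255 was lost without animal 1501, 1503, 4502 or 5503 (adjusted p 0.0549 to 0.702), and that for ENSMFAG00000035418 without animal 1501, 4501, 4503, 5503 or 5504 (adjusted p 0.0574 to 0.405). Without animal 1501 the differences were -0.022 and -0.054. In these 10 animals run and letter B cannot be told apart. Animals 1504 and 5501 have all letters in the first run. There the mean log2 CPM of A and C minus B was -0.10 and 0.035 for ENSMFAG00000044255. For ENSMFAG00000035418 it was -0.22 in animal 1504 and 0.29 in animal 5501, which includes library 5501B. A difference of letter B from A and C within a run was not tested.

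Whether the run difference itself varied with treatment asks if the rise over anti-gD was alike in both runs. For ENSMFAG00000044255 the log2 difference between runs averaged -0.22 ± 0.06 with anti-gD (n = 3 animals), -0.12 ± 0.06 at 50 mg/kg (n = 4) and -0.12 ± 0.13 at 200 mg/kg (SD, n = 3). For ENSMFAG00000035418 it averaged -0.05 ± 0.13, -0.23 ± 0.15 and -0.17 ± 0.04 in these groups. Para09 minus anti-gD, the run difference differed by 0.09 (95% interval -0.10 to 0.28) for ENSMFAG00000044255 and by -0.17 (95% interval -0.38 to 0.04) for ENSMFAG00000035418. Neither passed edgeR's test (adjusted p 0.728 and 0.572) or the exact two-sided permutation test of 7 against 3 animals (p = 0.1 and p = 0.117). Over all 16046 genes the share called was 0%, with 1308 genes at an unadjusted p under 0.05 in edgeR and 0 called by DESeq2.

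**Figure D3:**
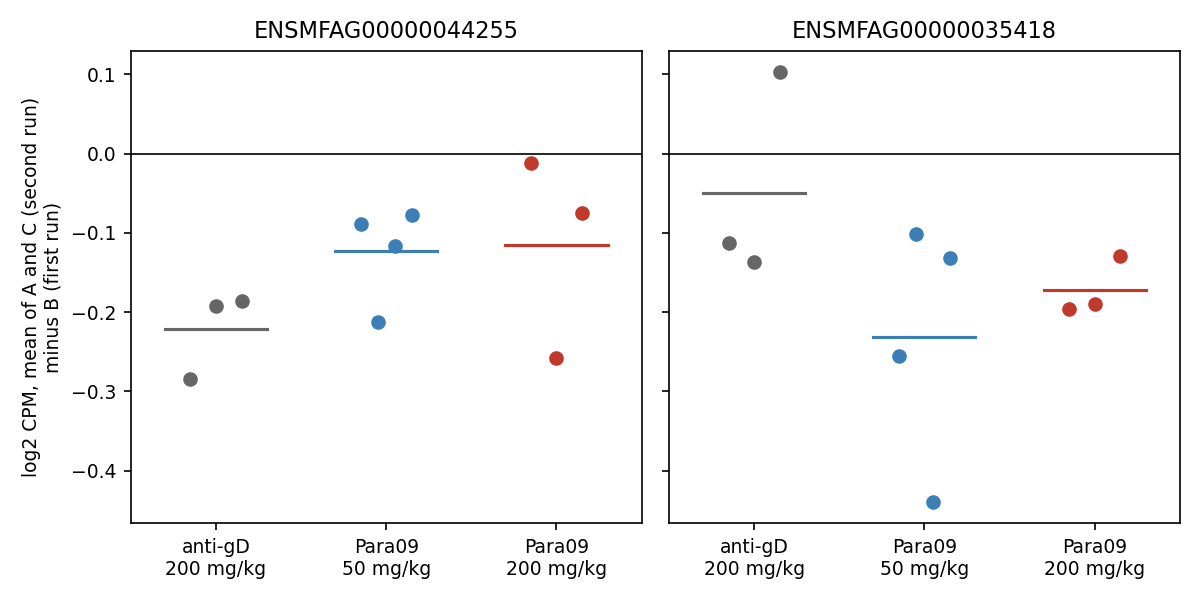
Log2 CPM of letters A and C (second run, mean of both) minus letter B (first run) for each of the 10 animals with libraries in both runs (points), by treatment, with horizontal bars for the group means; CPM are scaled over all 36 libraries. All 10 animals lie below 0 for ENSMFAG00000044255 and 9 of 10 for ENSMFAG00000035418, the exception being control animal 1503.

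Letters A and C of an animal always lie in the same run and show the spread between libraries of 1 animal. ENSMFAG00000044255 was higher in A by a log2 value of 0.05 (95% interval -0.05 to 0.15) and ENSMFAG00000035418 by 0.07 (95% interval -0.02 to 0.16). Neither passed edgeR's test over 12 animals (adjusted p 0.603 and 0.501) or the exact two-sided sign-flip permutation test (p = 0.269 and p = 0.125). The share of 16044 genes called was 0% in edgeR, with 1555 genes at an unadjusted p under 0.05, and DESeq2 called 1 gene. The largest gap between letters A and C for ENSMFAG00000044255 was in animal 4501, at 97.8 CPM in A and 80.5 in C. For ENSMFAG00000035418 it was in animal 5502, at 97.5 in A and 81.9 in C.

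The libraries of an animal agreed closely in both genes. After the run difference was removed, the SD of log2 CPM between libraries of an animal was 0.070 for ENSMFAG00000044255 and 0.11 for ENSMFAG00000035418, against a median of 0.27 over 15928 genes. A smaller SD was found in 0.138% and 4.36% of genes. Without library 5501B the SDs were 0.081 and 0.11, and a smaller SD was found in 0.689% and 4.32% of genes. Counting error accounts for an SD of 0.031 and 0.036 in these genes. Animals within a group took 32.8% of the variation of ENSMFAG00000044255 and 41.9% of that of ENSMFAG00000035418, and libraries within an animal took 5.26% and 3.42%. The medians over all genes were 27.3% and 34.6%. The run took 7.36% and 0.0151%, against a median of 23.2%. The share of treatment groups, 54.6% and 54.7% against a median of 3.89%, restates how the genes were picked. All shares are parts of the same total, so a large group share lowers the others. The low library shares are therefore not separate from that choice. Both genes are more abundant than most, and the shares were not compared at matched abundance.

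The 2 genes did not follow the same animals. Animal 5502 was the lowest at 200 mg/kg for ENSMFAG00000044255 and the second highest for ENSMFAG00000035418, and animal 4501 was the lowest at 50 mg/kg for the former and the highest for the latter. Animal 5503 was the highest of the 12 for both. With group means removed, which sets aside the property used to choose them, their log2 CPM correlated across the 12 animals with r = -0.24 (exact two-sided permutation within groups, p = 0.467) and rho = -0.29 (exact p = 0.399). Without animals 5502 and 5503, whose deviations in ENSMFAG00000044255 lay farthest from the median, r was -0.58 (exact p = 0.0382) and rho -0.72 (exact p = 0.0503), and without animal 5503 alone r was -0.63 (exact p = 0.0307). In letter B alone r was -0.13 (exact p = 0.76) and in the second run alone -0.16 (exact p = 0.63). A common movement of the genes across animals was thus not detected with 12 animals, and its value depended on single animals: besides the change without 5503, r was -0.072 without animal 4501, -0.088 without 5502 and -0.11 without 5501.

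**Figure D4:**
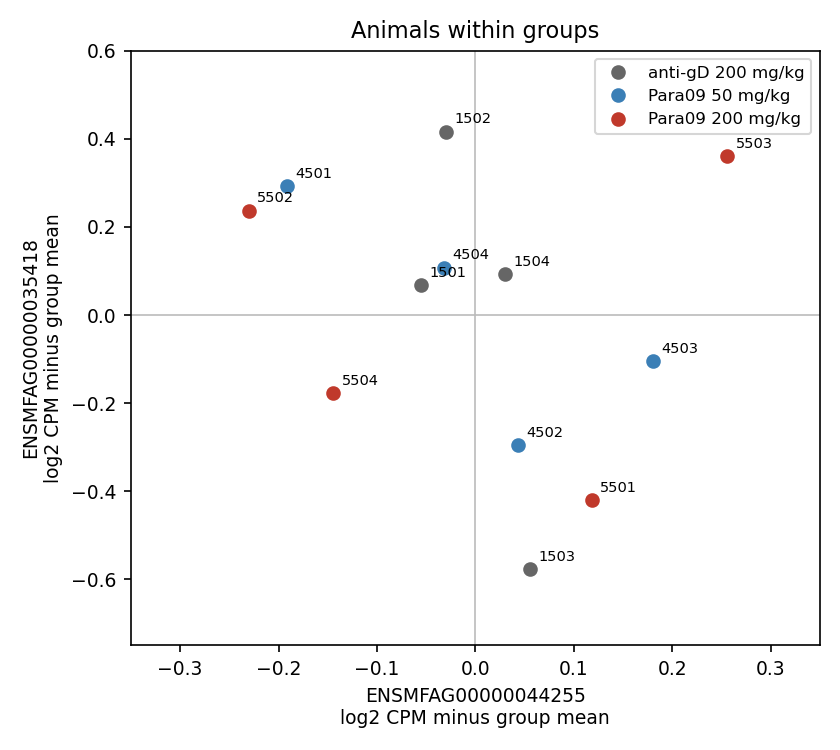
Deviation of each animal from its group mean in log2 CPM, for ENSMFAG00000044255 (horizontal axis) and ENSMFAG00000035418 (vertical axis), with points for the 12 animals coloured by treatment. The points do not line up (r = -0.24), and animal 5503 is high for both genes.

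Each gene had closer companions among the other genes than its partner. Over the 12 animals with groups included, r between them was 0.50 (rho 0.53), which ranked 620th among 14643 genes compared with ENSMFAG00000044255 and 690th among those compared with ENSMFAG00000035418. The genes most like ENSMFAG00000044255 were ENSMFAG00000044400 (r = 0.90) and ENSMFAG00000036457 (r = 0.89). The former stood at 1.82 ± 0.269 CPM with anti-gD, 2.35 ± 0.175 at 50 mg/kg and 3.06 ± 0.893 at 200 mg/kg, with its highest mean at the higher dose. The latter stood at 132.0 ± 1.27 CPM with anti-gD, 149.9 ± 7.31 at 50 mg/kg and 147.4 ± 4.15 at 200 mg/kg (SD, n = 4 animals), with the means of both doses closer together than to the control mean. The genes most like ENSMFAG00000035418 were ENSMFAG00000043190 (r = 0.88) and ENSMFAG00000022408 (r = 0.86). ENSMFAG00000022408 stood at 2.44 ± 0.303, 3.42 ± 0.503 and 3.49 ± 0.489 CPM in the same groups. These r are the highest of 14643 over 12 points and are given as a description with no test. They include the group means by which the 2 chosen genes were picked. The group levels of the companions thus partly restate that choice. With group means removed the 4 r were 0.82, 0.79, 0.72 and 0.65. The companions were picked on r over the same animals, which includes these deviations, so the values are no separate check. In letter B alone, with groups included, they were 0.66, 0.68, 0.58 and 0.60, and 4 other genes ranked highest there.

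Between libraries of the same animal and run, where treatment plays no part, the gene most like ENSMFAG00000044255 was ENSMFAG00000001501 (r = 0.82 over the 26 libraries that share animal and run with another) and the gene most like ENSMFAG00000035418 was ENSMFAG00000033398 (r = 0.88). Anti-gD had the lowest group mean in ENSMFAG00000033398, as in the chosen pair, but not in ENSMFAG00000001501. Their levels by treatment were not tested against those of the pair. ENSMFAG00000001501 stood at 110.04 ± 7.501 CPM with anti-gD, 109.4 ± 8.94 at 50 mg/kg and 115.2 ± 4.50 at 200 mg/kg, with overlapping groups, and ENSMFAG00000033398 at 11.1 ± 3.31, 12.2 ± 2.43 and 14.6 ± 3.58 CPM (SD, n = 4 animals). The 2 chosen genes correlated with each other at 0.24 on this measure. It takes each library as its deviation from the mean of its animal and run. Where only letters A and C of an animal share a run, their deviations are equal and opposite. The 26 values are therefore not all independent. The r of 0.82 and 0.88 are each the highest of 14643 and are given as a description with no test.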

How the data were processed

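The deposited tables hold 1 file per library. Counts are the authors' whole-number read counts per gene over exons, per the file headers, and the authors' RPKM values divide them by exonic width and by a total larger than the summed counts (mean share counted 57.1% in the first run and 59.5% in the second). GSNAP is the aligner, per the submitters' processing notes; its version, the genome build, the annotation and the handling of strand and of multiply matching reads are not stated, so overlapping genes and close copies may have exchanged counts.

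Counts were summed per animal (54.7 M to 80.3 M) and fitted with edgeR 4.0.16 in R 4.3.3 (TMM, filterByExpr, quasi-likelihood, all 12 animals). Runs and letters were tested on library counts with the animal as a block, with Benjamini-Hochberg adjustment over all genes and calls at an adjusted p under 0.05. Log2 CPM used a prior count of 2. Named genes are the 2 chosen genes and those most correlated with them among genes averaging 1 CPM or more (the top 2 over animals, the top 1 over libraries). The genes, lists and tests were chosen with earlier results of these data known. Alternatives were RLE, DESeq2 1.42.0, limma 3.58.1 voom, other filters and scalings, subsets of libraries and each animal left out. Scripts were tested on simulated data. The lists of TREM2, microglial, interferon and cell type genes need symbols and were not used. Whether an animal's 3 libraries come from separate pieces of tissue is not stated.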

Additional observations from a re-analysis of the deposited data

How the results depend on the processing

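The log2 differences of both genes at 50 and 200 mg/kg kept their direction and moved by less than the SD between animals under each alternative run; those without 1 animal ran from 0.28 to 0.41 and 0.34 to 0.51 for ENSMFAG00000044255 and from 0.60 to 0.91 and 0.59 to 0.90 for ENSMFAG00000035418. Whether the run difference was called depended on the processing. It was -0.10 for ENSMFAG00000044255 and -0.11 for ENSMFAG00000035418 with no low-count filter, -0.064 and -0.074 when scaled to the totals of the deposited RPKM (added after seeing the data), and -0.14 and 0.042 in the library-level limma voom model, none past the threshold (adjusted p 0.127 to 0.869). That model has terms for both letter and run, which can be told apart only through animals 1504 and 5501. Its run term is thus another quantity than the reported difference, in which run and letter B go together. It called 4499 genes where the test reported called 9258, and these counts are not like for like. Without 1 animal each the run difference ran from -0.13 to -0.022 and from -0.15 to -0.054. Between letters A and C, 1 gene was called by DESeq2, 1 without animals 1504 and 5501, and 0 to 1 without 1 animal each. The correlation of the genes within groups ran from -0.63 to -0.072 without 1 animal each. In letter B alone 104 genes had 50 mg/kg above the controls (375 of 17360 in the sums). There 176 genes had 200 mg/kg above them (236 in the sums) and 16 had both doses above them (47 in the sums). Neither chosen gene was among the 16. Letter B was filtered by itself, and its number of genes tested is not given. With RLE size factors the second gene most like ENSMFAG00000044255 was ENSMFAG00000034142 (added after seeing the data). The cause of these changes was not tested. Animals carry no numbers shared between groups.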
